A study of Mus musculus with 4 samples.

Results

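The MHC class II presentation genes H2-Aa, H2-Ab1, H2-Eb1, Cd74, Ciita, H2-DMa, H2-DMb1, H2-DMb2 and Ctss were followed in the hearts of mice with and without high-intensity exercise and with and without tumor cells. They were taken by symbol, 9 of the 23238 symbols in the heart mRNA-seq data. All 9 were found, and 7 of them had more than 3 reads in each library. The data comprised 4 heart libraries, with 1 library per group and no replicate, so no difference between groups has a replicate check. The groups were E-&T- (normal control, neither exercise nor tumor), E+&T- (normal exercise, treadmill running without tumor), E-&T+ (cancer control, tumor cells without exercise) and E+&T+ (cancer exercise, tumor cells and treadmill running). All mice were male CDF1, a cross of BALB/c and DBA/2, both of the H-2d haplotype. The labels give an age of postnatal day 28. By the study's methods this is about the age at which the mice were obtained, and the hearts were taken later, when the exercise period ended. In the tumor groups, CT26 cells, a mouse colorectal cancer line of BALB/c origin, were injected into the tail vein and not into the heart. Whether a heart library was made from 1 mouse or from a pool of the group is not given in the sources used here. For gastrocnemius muscle the study names a representative mouse per group, and it describes a similar analysis of the heart.

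MHC class II molecules are pairs of an alpha and a beta chain that show peptides from the endocytic pathway to CD4 T cells. In mice, H2-Aa and H2-Ab1 encode the chains of the I-A molecule and H2-Eb1 encodes the beta chain of I-E. The chains assemble with the invariant chain Cd74, which fills the peptide groove until it is cut down in the endosome by proteases, of which cathepsin S (Ctss) is the main one in dendritic cells and B cells. The last fragment, CLIP, is exchanged for peptide with the help of H2-DM, made of H2-DMa and a beta chain from H2-DMb1 or H2-DMb2. Ciita is the coactivator that switches on the class II chain, Cd74 and H2-DM genes, and it is itself induced by interferon gamma. In the heart, class II is known from resident dendritic cells and from a subset of macrophages. Ctss differs from the others in being a general lysosomal protease of myeloid cells.

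H2-DMa, H2-DMb2, H2-DMb1, H2-Ab1, H2-Aa and H2-Eb1 lie within 197 kb of chromosome 17 in GRCm38 (GENCODE M21), between positions 34119541 and 34316674. Ciita lies on chromosome 16 and Ctss on chromosome 3. Class II promoters are known for an X box and a Y box, bound by RFX and NF-Y, on which Ciita assembles. RefSeq promoters in GRCm38.p6, of the C57BL/6J reference strain and not of CDF1, were at hand for 6 of the 9 members. The letters searched on both strands, in the 250 bases before each start, were AACNNATG for an X box core, TGATTGG for a Y box core, TGACGTCA for a cyclic AMP response element, which reads the same on both strands, and for an interferon-stimulated response element GAAA, any 2 bases and GAAA again. No match of one overlapped a match of another in the sequences printed here. They were found in 7.71%, 7.23%, 1.55% and 2.98% of the 32851 promoters of this length, and an X box core followed within 40 bases by a Y box core in 19 of them (0.0578%). H2-Eb1, H2-DMb1 and H2-DMb2 were 3 of these 19. H2-Aa held the Y box core and the cyclic AMP response element, and Ctss held the interferon-stimulated response element and an X box core at -207, outside the printed stretch. Neither RefSeq start of H2-DMa had a match. The X and Y box cores of H2-DMb1, at -92 and -63, fall in an exon of GENCODE M21, and its sequence is not printed. Sequences are given for a class II chain of each of I-A and I-E, for the H2-DMb2 promoter with its X and Y boxes, and for Ctss, the member that moved against the rest. They are shown 5′ to 3′ on the gene's strand, ending at the base before the RefSeq start, except that H2-DMb2 ends where a GENCODE exon begins. Capitals mark the matches. The windows are chr17:34287824-34287953 on the minus strand for H2-Aa, and on the plus strand chr17:34305737-34305866 for H2-Eb1, which also lies in an intron of the antisense gene Gm20513, chr17:34145119-34145235 for H2-DMb2 and chr3:95526656-95526785 for Ctss.
H2-Aa: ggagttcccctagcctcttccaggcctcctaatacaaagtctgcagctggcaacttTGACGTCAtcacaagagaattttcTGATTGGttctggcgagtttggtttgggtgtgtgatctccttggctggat
H2-Eb1: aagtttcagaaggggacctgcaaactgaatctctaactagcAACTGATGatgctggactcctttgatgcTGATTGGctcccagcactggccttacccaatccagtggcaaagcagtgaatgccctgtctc
H2-DMb2: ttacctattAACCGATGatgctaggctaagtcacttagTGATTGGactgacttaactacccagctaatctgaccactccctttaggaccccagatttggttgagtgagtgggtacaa
Ctss: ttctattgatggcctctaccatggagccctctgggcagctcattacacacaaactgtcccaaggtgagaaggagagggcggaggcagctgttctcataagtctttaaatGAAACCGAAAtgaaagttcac
A match is a description of these letters only. No binding was measured.

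The values deposited were log2 values of normalized read counts plus 1, from which whole reads were recovered. The libraries held 6595418 (E-&T-), 8477168 (E+&T-), 9532882 (E-&T+) and 11545949 (E+&T+) reads. QuantSeq libraries are read at the 3′ end of the mRNA, so a transcript gives a read whatever its length, and levels are compared between genes on that scale. The mice are H-2d and the mm10 genome is of the H-2b haplotype, and how this affected the reads mapped to polymorphic class II genes, and so levels between genes, was not tested. Below, 4 values in a row are always in the order E-&T-, E+&T-, E-&T+ and E+&T+. Differences are those of the deposited log2 values, and a gene was called in a comparison when it differed by 2-fold and either library had 4 or more normalized reads of it. Intervals were computed from the reads at a 95% level by the Clopper-Pearson method and cover counting error only, since reads carry no molecular identifiers and no group has a second library. Globin reads were 37.3% of the E+&T+ library and between 7.86% and 8.76% of the others. The 10 cardiomyocyte markers listed, such as Myh6 and Tnnt2, were over 3 reads in each library, with summed normalized reads from 458520 to 514690.

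The classical class II chains and the invariant chain were abundant in both hearts without tumor, lowest in the heart of E-&T+ and intermediate in that of E+&T+. H2-Aa, the I-A alpha chain, had 1351, 1753, 161 and 423 reads, which are log2 values of 10.60, 10.63, 7.16 and 8.86. H2-Ab1, the I-A beta chain, had 366, 519, 70 and 114 reads, or log2 values of 8.71, 8.88, 5.97 and 6.97. H2-Eb1, the I-E beta chain, had 763, 1082, 92 and 210 reads, or log2 values of 9.77, 9.94, 6.36 and 7.85. All 3 chains took the same order of libraries on the log2 scale, with both hearts without tumor above both hearts with tumor. Cd74, the invariant chain that the new chains need to leave the endoplasmic reticulum, had 483, 719, 79 and 166 reads and log2 values of 9.12, 9.35, 6.14 and 7.51, in the same order. By reads per library, H2-Aa ranked 669 among all genes of E-&T- and 5805 among those of E-&T+.

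The H2-DM genes were expressed at much lower levels. H2-DMa had 47, 61, 22 and 21 reads, which are log2 values of 5.77, 5.82, 4.34 and 4.59. H2-DMb1 had 94, 82, 20 and 33 reads, or log2 values of 6.76, 6.23, 4.20 and 5.22. Again the hearts with tumor were below those without. The other beta chain gene, H2-DMb2, had 1, 2, 0 and 0 reads, at or under the floor of 3 reads in each library, and the coactivator Ciita had 1, 3, 0 and 0 reads. No fold is given for either gene, since a count of 0 allows up to 0.315 RPM (reads per 1000000 reads of the library) in E-&T+ and 0.260 in E+&T+. H2-DMb1 and H2-DMb2 are highly similar copies, and the division of reads between them is uncertain.

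Ctss took another order. It had 301, 454, 1862 and 593 reads, or log2 values of 8.44, 8.69, 10.68 and 9.34. The heart of E-&T+, lowest for the chains, was highest for Ctss, and there Ctss ranked 729 by reads among all genes, against 3148 in E-&T-. There were 0.623, 0.631, 23.6 and 3.57 Ctss reads per Cd74 read, with 95% intervals of 0.538 to 0.721 in E-&T- and 18.8 to 29.9 in E-&T+.

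**Figure D1:**
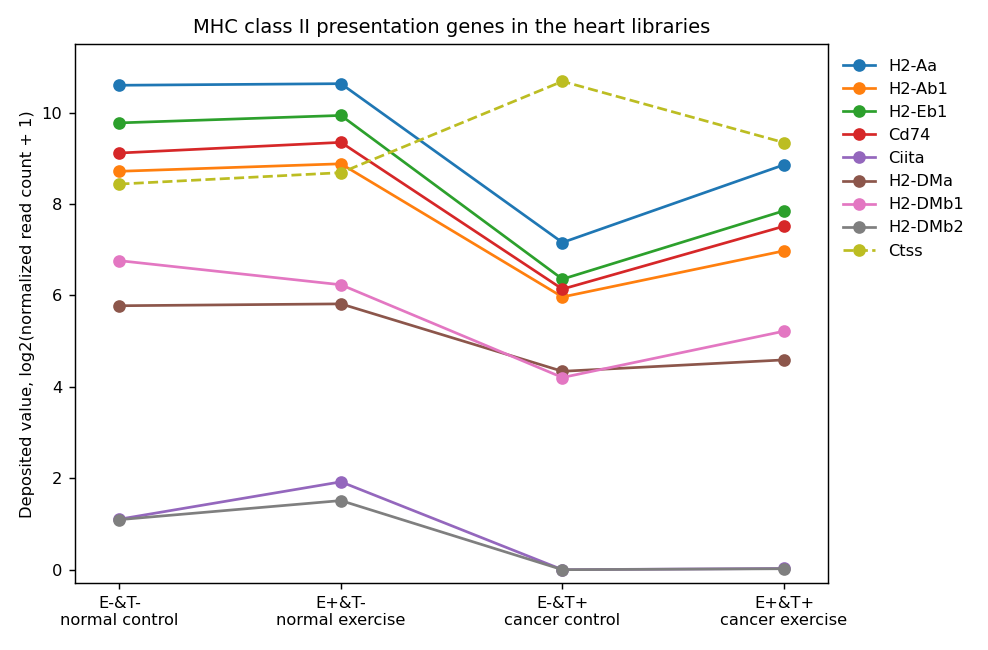
Deposited log2(normalized read count + 1) of each of the 9 members in the 4 heart libraries, 1 point per library, with lines joining the points of a gene and Ctss dashed. H2-Aa, H2-Eb1, Cd74, H2-Ab1, H2-DMb1 and H2-DMa are lower in both libraries with tumor than in both without, Ctss is highest in E-&T+ at 10.68, and Ciita and H2-DMb2 stay under a log2 value of 2.

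The first comparison was that of the tumor in hearts without exercise, E-&T+ vs. E-&T-. Here 6 of the 7 members tested were called lower and Ctss was called higher. Of the 14311 genes tested, 27.6% were called in this comparison, 14.6% as higher and 13.1% as lower. The log2 difference of H2-Aa was -3.44 (95% interval -3.69 to -3.21), a level 10.9-fold lower, and it stood at place 101 from the lowest of all genes tested. H2-Eb1 differed by -3.42 (-3.76 to -3.12, place 102), Cd74 by -2.98 (-3.35 to -2.64, place 174) and H2-Ab1 by -2.75 (-3.15 to -2.39, place 232). H2-DMb1 differed by -2.56 (-3.39 to -1.90), and H2-DMa by -1.43 (-2.27 to -0.71). Ctss was 4.75-fold higher, with a log2 difference of 2.25 (2.07 to 2.43). The median difference was -2.75 over the 7 members and -0.01 over all genes tested.

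In exercised hearts, E+&T+ vs. E+&T-, the same 6 members were called lower and Ctss was not called. The background was 23.0% of 14282 genes called, 11.1% as lower. The log2 differences were -2.09 (95% interval -2.31 to -1.88) for H2-Eb1, -1.90 (-2.22 to -1.62) for H2-Ab1, -1.84 (-2.09 to -1.60) for Cd74 and -1.77 (-1.93 to -1.62) for H2-Aa. H2-DMa differed by -1.23 (-2.05 to -0.53). H2-DMb1, at -1.02 (-1.67 to -0.44), was close to the 2-fold limit. Ctss differed by 0.66 (0.48 to 0.84). On the scale of the deposited values, each of the 6 was nearer 0 than in hearts without exercise. By reads per library total, H2-DMa was further from 0, at -1.92 in exercised hearts and -1.58 in hearts without exercise. Whether the tumor comparisons differ could not be tested, since no group has a replicate.

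Exercise without tumor, E+&T- vs. E-&T-, gave no call among the 7 members tested, where 12.3% of 13930 genes were called, 5.88% as higher and 6.4% as lower. The log2 differences were 0.04 (95% interval -0.07 to 0.14) for H2-Aa, 0.16 (-0.03 to 0.36) for H2-Ab1 and 0.04 (-0.54 to 0.62) for H2-DMa, with intervals that hold 0. H2-Eb1 at 0.16 (0.03 to 0.30), Cd74 at 0.23 (0.06 to 0.40) and Ctss at 0.25 (0.04 to 0.47) were higher by more than counting error, by at most 1.19-fold. H2-DMb1 was the only member lower in this comparison, with -0.53 (-0.98 to -0.10).

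Exercise in the hearts with tumor, E+&T+ vs. E-&T+, gave 5 members called higher, namely H2-Aa, H2-Eb1, Cd74, H2-DMb1 and H2-Ab1, and 1 called lower, Ctss. In all, 19.4% of 14357 genes were called, 9.39% as higher and 10.0% as lower. H2-Aa was 3.25-fold higher, with a log2 difference of 1.70 (95% interval 1.44 to 1.97). H2-Eb1 differed by 1.50 (1.14 to 1.87) and Cd74 by 1.38 (0.99 to 1.79). H2-Ab1, at 1.01 (0.57 to 1.46), and H2-DMb1, at 1.01 (0.19 to 1.91), passed the 2-fold limit by so little that their intervals reach well under it. H2-DMa, at 0.25 (-0.69 to 1.17), was not called. Ctss was 2.53-fold lower, with -1.34 (-1.48 to -1.21). On the RPM scale, whose total holds the globin reads of E+&T+, the median of all genes tested moved to -0.60, and H2-Aa (1.11) and Ctss (-1.92) were the members still called.

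Set against E-&T-, the heart of E+&T+ had the same 6 members called lower, with log2 differences from -1.92 for H2-Eb1 to -1.19 for H2-DMa, and 24.6% of 14329 genes were called, 12.2% as lower. Ctss differed by 0.91 (95% interval 0.71 to 1.12) and was not called. These comparisons share libraries, E-&T+ and E+&T+ among them, so their values are not independent of each other.

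**Figure D2:**
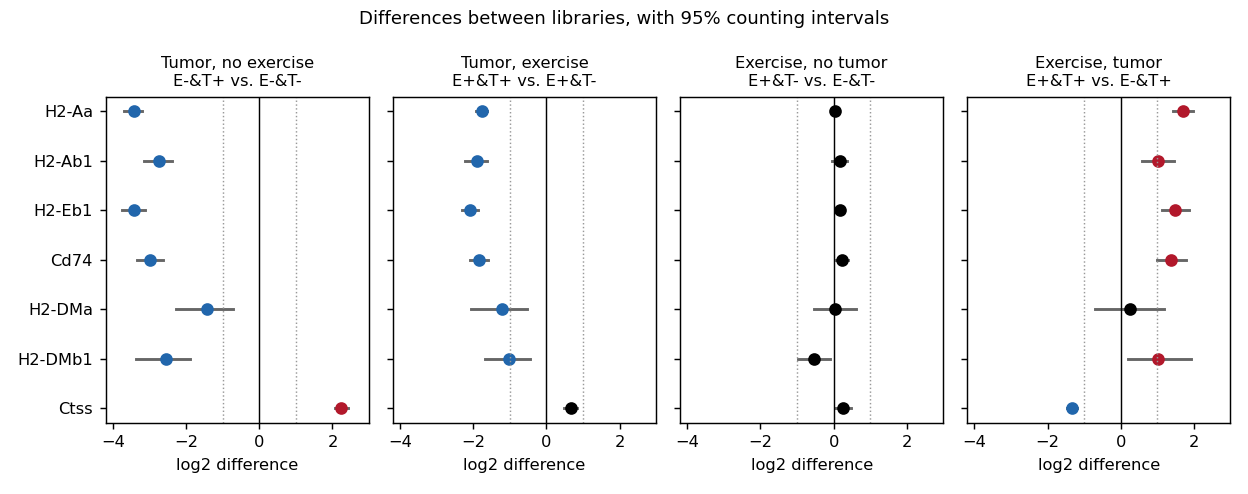
Log2 difference of the 7 members tested in 4 comparisons (panels), with 95% counting intervals as bars; red points are called higher, blue points lower, black points are not called, and dotted lines mark a 2-fold difference. The chains, Cd74 and H2-DM genes lie left of 0 in both tumor panels, between -3.44 and -1.02, and Ctss lies right of 0 there.

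The share of reads does not depend on the scaling between libraries. The class II molecule was summed over H2-Aa, H2-Ab1, H2-Eb1 and Cd74, a sum that was set by role after the values had been seen. It made up 449 RPM in E-&T- (95% Clopper-Pearson interval 433 to 466), 480 in E+&T- (466 to 495), 42.2 in E-&T+ (38.1 to 46.5) and 79.1 in E+&T+ (74.0 to 84.4). Over reads outside globin genes, it was 492, 525, 45.8 and 126 RPM. All 9 members together, Ctss included, made up 517, 551, 242 and 135 RPM. Within the sum, the proportions of the 4 genes were close to each other across libraries, except for a higher share of H2-Ab1 in E-&T+. H2-Aa gave 45.6%, 43.0%, 40.1% and 46.3% of the reads, H2-Eb1 gave 25.8%, 26.6%, 22.9% and 23.0%, Cd74 gave 16.3%, 17.7%, 19.7% and 18.2%, and H2-Ab1 gave 12.4%, 12.7%, 17.4% and 12.5%. The H2-Ab1 share of E-&T+ had an interval of 13.8% to 21.5% on 402 reads, above that of 11.2% to 13.6% in E-&T-. H2-DMa did not keep step with the chains: there were 28.7, 28.7, 7.32 and 20.1 H2-Aa reads per H2-DMa read, with an interval of 4.67 to 12.01 in E-&T+.

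In heart tissue, fewer class II cells and less class II RNA per cell cannot be told apart. On the scale of the deposited values, leukocyte reads were higher in both hearts with tumor. The 10 pan-leukocyte markers, such as Ptprc and Tyrobp, summed to 1221, 1331, 2509 and 1969 normalized reads, and the 15 macrophage markers to 5145, 6700, 12322 and 7510. On the RPM scale only E-&T+ stood above the hearts without tumor, with 161, 174, 298 and 156 RPM for the pan-leukocyte and 680, 874, 1465 and 595 RPM for the macrophage markers. Over reads outside globin genes these were 177, 190, 324 and 249, and 746, 954, 1590 and 948 RPM. The ratios within a library do not depend on the scale. Per pan-leukocyte read there were 2.78 reads of the class II sum in E-&T- (95% interval 2.60 to 2.99), 2.77 in E+&T- (2.60 to 2.94), 0.141 in E-&T+ (0.127 to 0.157) and 0.507 in E+&T+ (0.468 to 0.549). Per macrophage marker read there were 0.660, 0.550, 0.0288 and 0.133. By either measure the hearts with tumor lay below those without, and E-&T+ lay lowest.

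**Figure D3:**
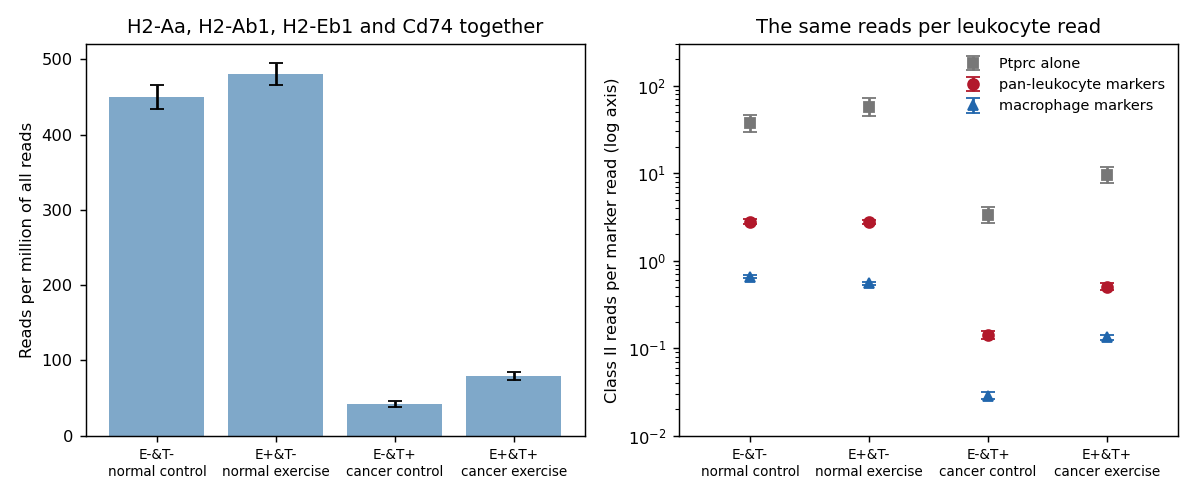
Left, reads of H2-Aa, H2-Ab1, H2-Eb1 and Cd74 together in RPM of all reads in each library (bars, from 0); right, the same reads per read of Ptprc, of 10 pan-leukocyte markers and of 15 macrophage markers, on a log axis. Error bars are 95% counting intervals; the left bars stand at 449 and 480 without tumor, at 42.2 in E-&T+ and at 79.1 in E+&T+.

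Markers of myeloid cells, in which Ctss is known to be expressed, were also higher in the heart of E-&T+. Of the 15 macrophage markers, 10 were called higher and 1 lower in E-&T+ vs. E-&T-, with a median log2 difference of 1.44, and 6 were called lower in E+&T+ vs. E-&T+, with a median of -0.65. The shares over all genes tested were 14.6% higher and 13.1% lower in E-&T+ vs. E-&T-, and 10.0% lower in E+&T+ vs. E-&T+. The 13 monocyte markers summed to 3126, 3583, 7373 and 6399 normalized reads, with 8 of 12 tested called higher in E-&T+ vs. E-&T-. Most of these reads were of Ly6c1, also known from endothelium, which was not called there (0.78), and the sums without it, taken after the values were seen, were 795, 1406, 3368 and 1811. The 11 neutrophil markers in the data summed to 166, 116, 4262 and 6583, with 10 of 11 called higher in that comparison. The part of these cells in the values of the members was not tested.

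Dendritic cells and B cells are the cells best known for class II, and their markers were sparse. Of 14 dendritic cell markers, Flt3 was at 0 in each library, and the sum of 810, 1017, 936 and 2090 normalized reads was dominated in E+&T+ by Cd24a, also known from immature red cells, with 77, 128, 124 and 1400 reads. Clec10a, a lectin of dendritic cells and macrophages, had 125, 263, 610 and 215 reads, and Zbtb46, a factor of classical dendritic cells, had 15, 22, 66 and 33. Fscn1, an actin-bundling protein of mature dendritic cells, had 432, 605, 219 and 203 reads. Thus Clec10a and Zbtb46 were highest in E-&T+, where the chains were lowest, while Fscn1 was lower in both hearts with tumor. Whether the reads of Clec10a, Zbtb46 and Fscn1 came from dendritic cells was not tested. Further markers, outside the rule for named genes and named after their values were seen, had few reads and did not all take the same order. Cd209a, a lectin of monocyte-derived dendritic cells, had 5, 14, 0 and 0 reads, Kmo had 2, 11, 0 and 0, and Siglech, of plasmacytoid dendritic cells, had 11, 22, 1 and 6. Like the chains, Cd209a and Siglech were called lower with tumor in hearts without exercise and in exercised hearts, though on few reads. Kmo was called lower in exercised hearts, and was under the floor in the hearts without exercise. The migration receptor Ccr7 had 7, 1, 0 and 10 reads. Of the markers of cross-presenting dendritic cells, Clec9a had 18, 30, 21 and 17 reads, Xcr1 had 8, 11, 7 and 15, and Batf3 had 2, 12, 10 and 11. Neither Ccr7 nor these markers were called lower in both tumor comparisons. In E-&T+ vs. E-&T-, 3 of the 11 dendritic cell markers tested were called higher and 4 lower, with a median of -0.53. Over all genes tested, 14.6% were called higher and 13.1% lower there. Of the markers called lower, Cd209a, Ccr7 and Siglech met the minimum only through E-&T-, and of those called higher, Batf3 met it only through E-&T+.

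B cell markers were near 0 in all libraries except Ebf1, which had 309, 337, 379 and 213 reads and is also expressed outside B cells. Also named after their values were seen, Cd79a had 6, 1, 0 and 3 reads and Ms4a1 had 5, 5, 0 and 2. The sum of the 9 markers in the data was 384, 332, 338 and 247 normalized reads. In E-&T+ vs. E-&T-, 4 of 6 tested were called lower, and 13.1% of all genes tested. All 4 met the minimum only through E-&T-, with 4 to 6 reads, and had 0 reads in E-&T+. The rule must call such a gene lower, so no conclusion is drawn from this count. The 11 T cell markers summed to 103, 61.1, 46.1 and 127. Of the 8 thymus markers, Rag1, Rag2, Dntt, Foxn1 and Tbata were at 0 in each library, and the sums were 8.29, 24.7, 16.8 and 8.91.

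Tissue next to the heart can carry class II cells of its own. The 8 lung epithelium markers summed to 635, 170, 586 and 1921 normalized reads, led by the club cell gene Scgb1a1 with 407, 108, 412 and 1123 reads, and all 8 were called higher in E+&T+ vs. E+&T-. The 8 adipocyte markers summed to 3559, 1094, 627 and 3167, with all 8 called lower in E-&T+ vs. E-&T-, and all 8 lower in E+&T- vs. E-&T-, where no member was called. The 11 erythroid markers in the data summed to 663830, 645720, 662660 and 4722600, and the 10 endothelial markers to 28201, 21352, 20263 and 27943. The part of these cells in the values of the members was not tested.

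Among other genes of the class II pathway, in E-&T+ vs. E-&T-, H2-Ea-ps was called lower like the chains, Ctsl, Lgmn and March1 were called higher like Ctss, and the other 8 tested were not called. The I-E alpha chain is carried by H2-Ea-ps in the reference annotation, where it is called a polymorphic pseudogene because C57BL/6 mice lack a working copy, while H-2d mice express it. It had 26, 52, 1 and 3 reads, and its log2 difference was -4.17 in E-&T+ vs. E-&T- (95% bounds -10.4 and -2.47) and -3.45 in E+&T+ vs. E+&T- (-6.17 to -2.21). Thus the partner chain of H2-Eb1 was also lower in both hearts with tumor. The cysteine protease Ctsl, which can cut the invariant chain in place of Ctss, had 915, 1276, 5622 and 2084 reads. Its log2 difference was 2.24 (2.14 to 2.34) in E-&T+ vs. E-&T-, and it was -1.12 (-1.19 to -1.05) in E+&T+ vs. E-&T+, both close to those of Ctss. Lgmn, the asparagine endopeptidase, had 154, 180, 556 and 155 reads, with differences of 1.47 and -1.53 in these comparisons. March1, a ubiquitin ligase that sends class II molecules to the lysosome, had 15, 30, 53 and 12 reads, with 1.39 (0.59 to 2.38) and -1.75 (-2.87 to -0.91). Of the 12 genes of this list tested in each of these comparisons, 3 were called higher and 1 lower in E-&T+ vs. E-&T-, with a median of 0.65, and 3 were called lower in E+&T+ vs. E-&T+, with a median of -0.65. The shares over all genes tested were 14.6% higher and 13.1% lower in E-&T+ vs. E-&T-, and 10.0% lower in E+&T+ vs. E-&T+. None of 12 was called in E+&T- vs. E-&T-, whereas H2-Ea-ps was the 1 gene of 13 called in E+&T+ vs. E+&T-.

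The upstream interferon gamma pathway held genes that were lower with tumor. Irf1, a factor of the Ciita promoter that interferon induces, had 465, 591, 221 and 185 reads, with log2 differences of -1.45 (95% bounds -1.69 and -1.22) with tumor in hearts without exercise and -1.40 (-1.65 to -1.16) in exercised hearts. Ifngr2, a receptor chain, had 930, 945, 353 and 342 reads, with -1.77 (-1.96 to -1.60) and -1.19 (-1.38 to -1.01). Both genes were lower in the hearts with tumor. The other receptor chain, Ifngr1, had 476, 484, 663 and 407 reads and the receptor kinase gene Jak2 had 96, 170, 203 and 143, and neither was called in a comparison. The cytokine itself, named after its values were seen, had 0, 0, 0 and 1 reads of Ifng. Of the 6 genes tested, 2 were called lower in E-&T+ vs. E-&T-, with a median of -0.0015, and 3 in E+&T+ vs. E+&T-, with a median of -0.52. The shares called lower over all genes tested were 13.1% and 11.1%. No gene of the list was called in either exercise comparison.

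The factors of the class II and Ciita promoters showed no common direction. Of 12, 3 were called higher and 1 lower in E-&T+ vs. E-&T- (median 0.19), and 2 were called lower in E+&T+ vs. E-&T+ (median -0.11). In E+&T- vs. E-&T-, 1 was called higher and 2 lower, and in E+&T+ vs. E+&T-, 1 higher and 2 lower. Spi1, the myeloid factor PU.1, had 19, 37, 71 and 45 reads, highest in E-&T+ like Ctss. Cebpb, also of myeloid cells, had 58, 160, 165 and 172. Prdm1, a repressor of Ciita in plasma cells, had 52, 28, 21 and 6 reads, and was lower in each of the 4 comparisons. Nfya, a subunit of NF-Y, had 35, 43, 23 and 12 reads, with -1.49 (95% bounds -2.63 and -0.62) in E+&T+ vs. E+&T-.

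Of the co-stimulatory molecules, which class II cells need to activate T cells, 5 of 7 were tested. Cd83, which stabilizes class II on the surface, had 48, 118, 29 and 54 reads, with log2 differences of -1.09 (95% bounds -1.82 and -0.41) with tumor in hearts without exercise and 1.19 (0.53 to 1.91) in E+&T+ vs. E-&T+. Cd274, the inhibitory ligand PD-L1, had 25, 24, 7 and 12 reads, with -2.07 (-3.67 to -0.96) and 1.02 (-0.37 to 2.67). Of these 3 libraries E-&T+ was lowest for both, but only Cd274 was, like the chains, lower in E+&T+ than in E-&T-, while the log2 value of Cd83 was 5.91 in E+&T+ and 5.81 in E-&T-. Icosl had 41, 105, 145 and 96 reads and Cd40 had 22, 20, 44 and 17. In E-&T+ vs. E-&T-, 1 was called higher and 2 lower (median 0.61), in E+&T+ vs. E-&T+ 2 higher and 1 lower (median -0.28), and none was called in the other comparisons of tumor or exercise. Of all genes tested, 14.6% were called higher and 13.1% lower in E-&T+ vs. E-&T-, and 9.39% and 10.0% in E+&T+ vs. E-&T+.

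MHC class I shows peptides from the cytosol to CD8 T cells. In E-&T+ vs. E-&T-, the median log2 difference was -0.51 over the 12 class I genes tested and -2.75 over the 7 members, with an exception among the class I genes. Nlrc5, the coactivator of class I genes and a relative of Ciita, had 32, 7, 3 and 8 reads, and its log2 difference of -3.41 (95% bounds -6.14 and -2.12) was close to that of H2-Aa. Unlike the chains, Nlrc5 was also called lower in E+&T- vs. E-&T-, with -2.36 (-3.96 to -1.33), and was not called in E+&T+ vs. E+&T-, with 0.44 (-1.19 to 2.16). The light chain B2m had 7067, 7453, 6667 and 5525 reads, with a log2 difference of -0.46 (95% bounds -0.51 and -0.41) in E-&T+ vs. E-&T-, against -3.44 for H2-Aa, and of 0.04 (-0.01 to 0.09) in E+&T+ vs. E-&T+. Nlrc5, B2m and the heavy chain H2-D1, with 4803, 5031, 5506 and 3933 reads of H2-D1, were named after their values were seen. The interferon-inducible proteasome subunit Psmb9 had 202, 179, 115 and 75 reads, with -1.18 (-1.53 to -0.85) in E-&T+ vs. E-&T-. Tap2, of the peptide transporter, had 103, 108, 85 and 39 reads, Tap1 had 63, 36, 89 and 53, and the peptide trimmer Erap1 had 95, 85, 83 and 42. Of the class I genes tested, 2 of 12, Nlrc5 and Psmb9, were called lower in E-&T+ vs. E-&T-, 3 of 14 lower in E+&T+ vs. E+&T- (median -0.38), 1 of 13 higher in E+&T+ vs. E-&T+ (median -0.17), and 1 of 13 higher and 2 lower in E+&T- vs. E-&T- (median -0.28). The shares over all genes tested were, in the same order, 13.1% lower, 11.1% lower, 9.39% higher, and 5.88% higher and 6.4% lower.

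**Figure D4:**
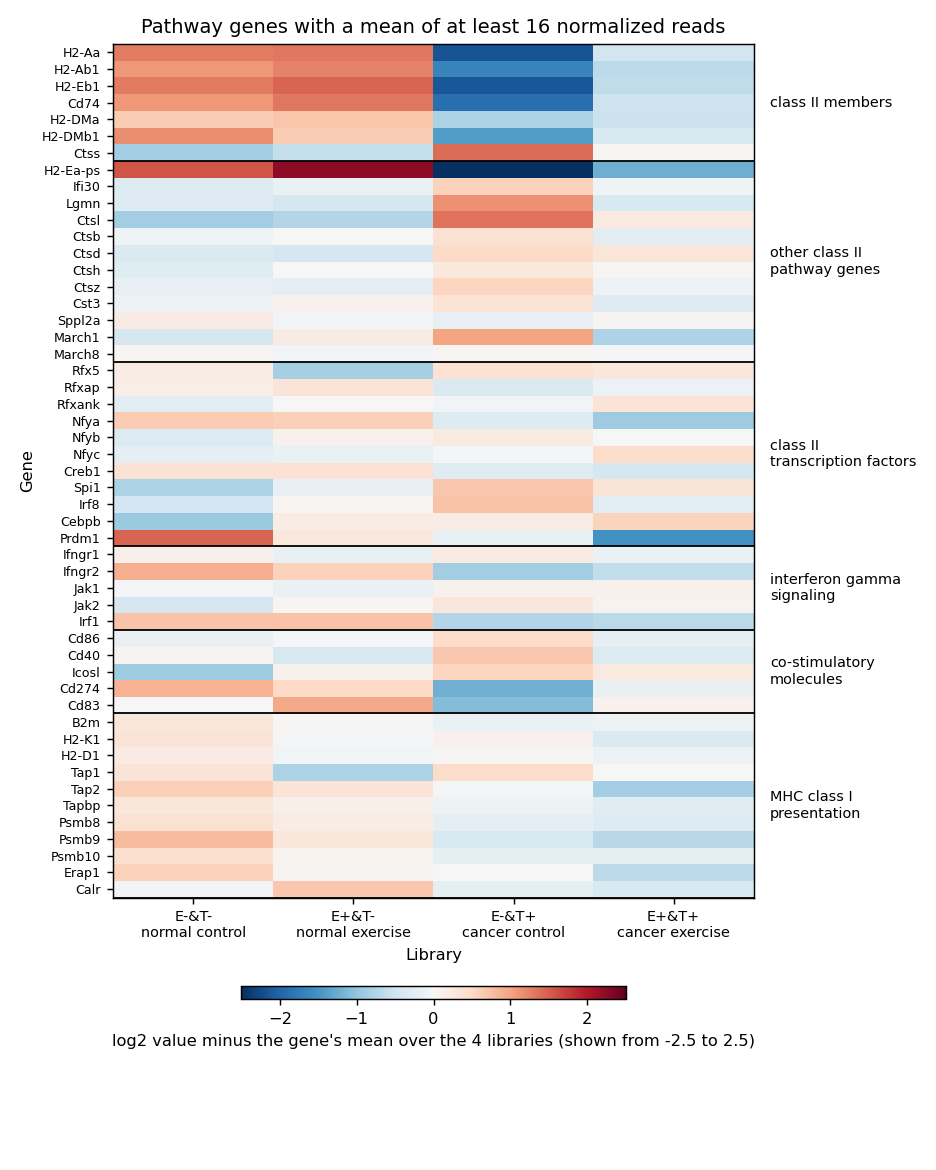
Log2 value minus the gene's mean over the 4 libraries for the 51 members and pathway genes whose normalized reads averaged 16 or more (rows, grouped by list; columns are libraries; red above, blue below the gene's mean; colours end at -2.5 and 2.5, which H2-Ea-ps passes in E-&T+). The class II chains, Cd74 and H2-Ea-ps are blue in both libraries with tumor, and Ctss, Ctsl, Lgmn and March1 are red in E-&T+.

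Outside these lists, the genes whose values lay nearest to the mean profile of the 9 members were Nr0b2, Dnaic1, Idua, C2cd2, BC052040, Adrb1, S100b and Ddx17, of 11489 genes compared over the 4 libraries. The mean profile includes Ctss and the genes at the floor, and is shallower than that of the chains. Likeness was the root mean square difference of centred log2 values, from 0.0249 for Nr0b2, a nuclear receptor, to 0.0962 for Ddx17, an RNA helicase. Nr0b2 had 103, 142, 36 and 46 reads. Adrb1, the main beta-adrenergic receptor of the heart, had 133, 206, 57 and 66 reads, with a log2 difference of -1.58 in E-&T+ vs. E-&T- and 0.52 in E+&T+ vs. E-&T+. A likeness over 4 libraries is a description only.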

How the data were processed

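Hearts were analysed by QuantSeq 3′ mRNA-seq, with 1 library per group. Per the methods and the submitters' processing notes, the authors used Bowtie2 to align reads to mm10, took read counts per gene from bedtools coverage and applied quantile normalization from edgeR. The deposited values are log2 values of normalized read counts plus a pseudocount of 1, 1 per gene and library. Whole reads were recovered by a fit of relative sizes and 1 dispersion (0.149), which gave back all 23282 rows within 0.000544. On simulated reads of 17174 genes, 97.7% of read numbers were recovered exactly. Where a symbol had more than 1 row, the row with the highest mean was used.

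No test across groups was run, since no group has a replicate. Calls needed a 2-fold difference and 4 normalized reads in either library, over all genes. The members and gene lists were chosen with earlier results of these data known. Of the lists, 2 genes are not reported here and were left out of the counts and sums. Genes named are the 9 members, up to 4 genes per list with the widest range where normalized reads averaged 16 or more, and the 8 nearest genes, besides those marked as chosen after their values were seen. Scaling, minimum, pseudocount and depth were varied. Marker sums by total reads and without Ly6c1 were added after seeing the data. Versions were matplotlib 3.10.9, pandas 2.3.3, scipy 1.17.1, numpy 2.4.6 and Python 3.11.15.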

Additional observations from a re-analysis of the deposited data

Results flagged for a closer look

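For H2-DMb1 and Ctss, the exercise comparisons with and without tumor pointed in opposite directions, with intervals beyond 0 in each. H2-DMb1 had a log2 difference of -0.527 in E+&T- vs. E-&T- and of 1.013 in E+&T+ vs. E-&T+. Ctss had 0.249 and -1.34 in these comparisons. The intervals cover counting error in 1 library per group, and the difference between the comparisons was not tested.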

How the results depend on the processing

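Of 280 values of single members under 8 alternatives in 5 comparisons, 258 stayed within the counting interval of the reported value and 22 lay outside it. A changed minimum alters calls and not values, so the values under those settings were within the interval by construction. The values outside were 5 for exercise with tumor, 8 for tumor with exercise and 9 for both together, all comparisons that use E+&T+. No called member changed direction, while 4 values of uncalled members changed sign: H2-Aa (-0.010) and H2-DMa (-0.0098) in the comparison of exercise without tumor scaled outside genes over 1% of a library, and H2-DMa (-0.33) in the comparison of exercise with tumor and Ctss (-0.06) in the comparison of tumor with exercise by total reads. Scaled by total reads, the members called in the comparison of exercise with tumor were 2 in place of 6, and the median of all genes moved to -0.60, and to -0.17, -0.74 and -0.76 in those of tumor without exercise, tumor with exercise and both together. Other settings gave from 4 to 6 there. Under all settings run, exercise without tumor had 0 members called, tumor without exercise 7 (9 with no minimum), and tumor with exercise and both together 5 to 8 each. Over reads outside globin genes, the share of the class II sum was 492, 525 and 126 RPM in E-&T-, E+&T- and E+&T+, and outside genes over 1% of a library it was 574, 603, 53.9 and 145 in the 4 libraries. Per Ptprc read there were 37.0, 56.6, 3.30 and 9.51 class II reads, and per macrophage marker read 0.660, 0.550, 0.0288 and 0.133. Over all genes, calls of exercise without tumor were 1711, against 782 at a minimum of 16 and 2798 with none. At a minimum of 16 they were 1626 against 2788 for exercise with tumor, 2102 against 3288 for tumor with exercise and 2332 against 3522 for both together. By total reads the last pair of comparisons had 5791 and 6149. By total reads, the percentage of calls that were higher was 12.9% in place of 48.4% for exercise with tumor, 42.1% in place of 52.7% for tumor without exercise, 13.7% in place of 52.0% for tumor with exercise and 14.0% in place of 50.3% for both together. Outside globin genes or genes over 1% of a library it was 41.3% for tumor with exercise in either case, and 39.2% or 38.3% for both together, and 42.6% outside globin genes for tumor without exercise. The cause of these shifts was not tested beyond the settings' own construction. With 1 library per group none can be left out. No paired analysis was possible because no group has more than 1 library. At this depth Ciita and H2-DMb2 could not be compared.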
